A study of Mus musculus with 36 samples.

Results

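Thyroid hormone reaches neurons of the hypothalamus through a chain of proteins, and the 6 genes described here stand for its steps. They are Slco1c1 (uptake of the hormone), Dio2 (its activation), Crym (its binding inside the cell), Thra and Thrb (its receptors) and Rax (a transcription factor of tanycytes). The genes were chosen by name, from the thyroid hormone pathway and from tanycyte biology, with earlier results of these data known. For each, the transcript cluster that names it alone was read from the arrays. A transcript cluster is the array's set of probes for 1 gene. Of the 6 genes, 5 had such a cluster, exactly 1 each, out of 18820 genes named on the array. No value is given for Thra, because the 2 clusters that name it also name Nr1d1. Both genes lie on chromosome 11 and overlap by 1075 bases (GRCm38.p6), so their signals cannot be told apart there.

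Hypothalamic RNA of 36 mice was measured, 1 Affymetrix array per mouse and 6 mice in each of 6 groups. Male C57BL/6 mice received 1 intraperitoneal injection of 50 µl shortly before the dark phase and were killed 5 h later. The TNF group received 15 pg TNFα, the IL-6 Low group 50 pg IL-6 and the IL-6 High group 800 pg IL-6. Combined groups were given 15 pg TNFα with either amount of IL-6 and are called TNF + IL-6 Low when it was 50 pg and TNF + IL-6 High when it was 800 pg. Control mice were given saline. TNFα is labelled as low, although only 1 dose of it is described. For Control replicates 5 and 6 the labels and the array names give unlike mouse numbers, but both say Control. The sources used here do not give the age of the mice. The methods excluded 1 TNF array without naming it. TNF replicate 4 was left out here, which leaves 35 arrays, 5 of them in TNF. Its log2 values had quartiles of 5.49 and 6.65, against 3.99 to 4.17 and 7.33 to 7.54 on the other 35 arrays. It correlated with the rest at a median of 0.270, where each of the 35 had a median of 0.972 to 0.988.

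Tanycytes are the elongated glial cells that line the floor of the third ventricle, between cerebrospinal fluid, blood and the arcuate nucleus. In rodents they hold most of the hypothalamic type 2 deiodinase, the Dio2 product, which converts the prohormone T4 into the active hormone T3. T3 then acts on nearby neurons that make thyrotropin-releasing hormone, and bacterial endotoxin is known to raise Dio2 in these cells. Slco1c1 encodes a T4 transporter that is also made by the endothelial cells of the blood-brain barrier. Crym encodes mu-crystallin, a cytosolic protein that binds T3 and is also made by neurons of the forebrain.

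The promoter of Dio2 is shown because Dio2 is the gene for which the question of an acute response is best known, and because its core elements can be read directly. The mouse gene lies on the minus strand of chromosome 12, from 90724552 to 90739038 (RefSeq, GRCm38.p6). The 250 bases before its start, chr12:90739039-90739288, are given 5′ to 3′ on the minus strand. Capitals mark a full cAMP response element (TGACGTCA), which begins 95 bases before the start, and a TATA box (TATAAA), which begins 30 bases before it.
Dio2: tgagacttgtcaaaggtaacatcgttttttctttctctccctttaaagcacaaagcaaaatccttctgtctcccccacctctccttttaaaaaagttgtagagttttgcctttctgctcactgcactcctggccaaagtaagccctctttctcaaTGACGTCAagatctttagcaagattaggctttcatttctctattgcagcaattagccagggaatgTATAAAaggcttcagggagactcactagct
Searched on both strands over the same 250 bases, the first motif was found in 508 of 32851 RefSeq promoters (1.55%) and the second in 4063 (12.4%). The promoter of Slco1c1 held neither. Of the 2 promoters of Thrb, 1 held the second motif, 167 bases before the start. A match is a description of these letters only.

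No gene passed the test in any comparison. One limma fit covered the 6 groups, and p was adjusted (Benjamini-Hochberg) over the 15049 genes measured at more than 20 intensity units on 3 or more arrays. With the limit at an adjusted p of 0.05, 0 of the 5 measured genes and 0 of all genes (0%) differed from Control in any treated group. The count was also 0 for the 17 arrays with TNFα against the 18 without it, for the 24 arrays with IL-6 against the 11 without it, and for any difference among the 6 groups. Without adjustment, p was under 0.05 in TNF for Dio2 alone of the 5, which was higher, while 796 of all genes (5.29%) were past that limit, 3.16% higher and 2.13% lower. In IL-6 Low none of the 5 was, against 1.4% of all genes, 0.392% higher and 1.01% lower. In IL-6 High none was either, against 2.07% of all genes, 0.678% higher and 1.4% lower. Rax alone was past it in TNF + IL-6 Low, where it was lower, against 9.58% of all genes, 4.11% higher and 5.47% lower. None was in TNF + IL-6 High, against 2.05% of all genes, 0.797% higher and 1.26% lower. With TNFα given against not given Dio2 and Crym were past it, both higher, against 5.99% of all genes, 2.58% higher and 3.41% lower. With IL-6 given against not given Rax was, and it was lower, against 3.27% of all genes, 0.857% higher and 2.41% lower. For any difference among the groups none of the 5 was, against 3.01% of all genes. The values of each of the 5 genes overlapped between the groups in all 7 comparisons. Over all genes, the share without overlap was 0.246% in TNF, 0.0664% with the lower and 0.0332% with the higher dose of IL-6 alone, 0.193% when TNFα was combined with the lower IL-6 dose, 0.159% with the higher one, and 0% in both pooled comparisons. In a homogenate of tissue, fewer cells of a type and less RNA per cell cannot be told apart.

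**Figure D1:**
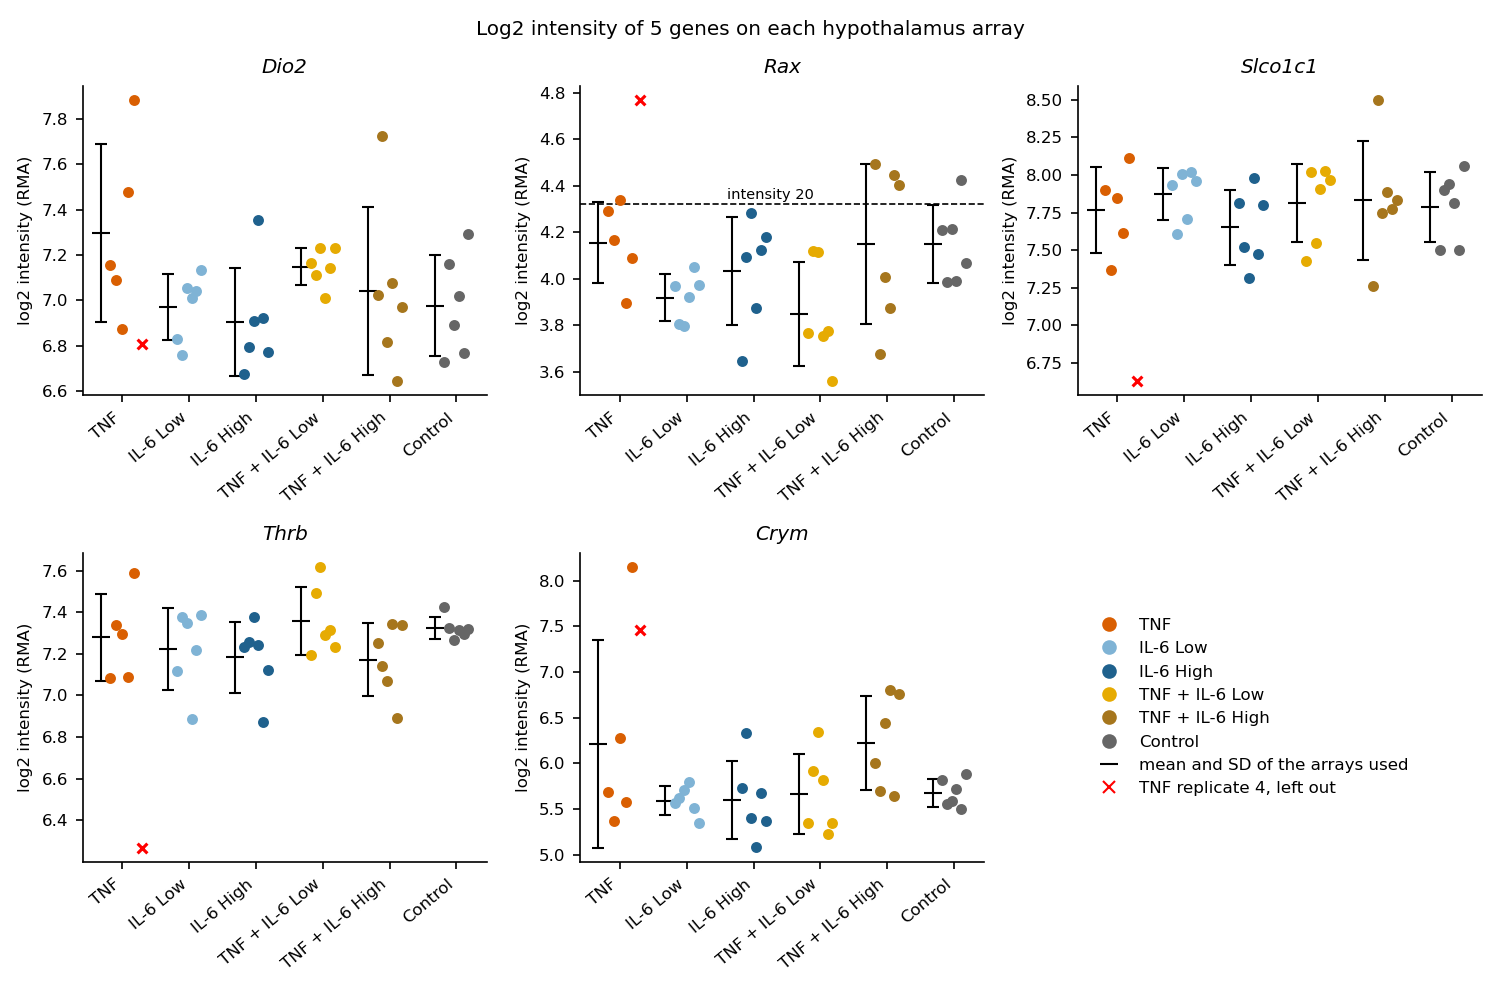
Log2 intensity (RMA) of Dio2, Rax, Slco1c1, Thrb and Crym on each array, grouped by treatment, the mean and SD of the arrays used in black and TNF replicate 4, which was left out, as a red cross. The dashed line in the Rax panel marks an intensity of 20. Dio2 and Crym are highest on TNF replicate 6, at 7.88 and 8.15, and the groups overlap for every gene.

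Dio2 was on average highest in TNF and lowest in IL-6 High. The log2 intensities in TNF replicates 1, 2, 3, 5 and 6 were 7.16, 7.09, 6.87, 7.48 and 7.88, and those of Control were 6.73, 7.16, 6.89, 7.02, 6.77 and 7.29. TNF replicates 5 and 6 lay above every Control array, and the other 3 TNF arrays lay among them. The means were 7.30 ± 0.39 in TNF (SD, n = 5) and 6.98 ± 0.22 in Control (SD, n = 6), a log2 difference of 0.32 (SE 0.15, 95% interval 0.02 to 0.62, adjusted p = 0.911 from limma). This is a fold of 1.25. Without TNF replicate 6 the difference was 0.17, and with TNF replicate 4 kept it was 0.24. Dio2 did not pass in either case.

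The other groups that received TNFα were closer to Control for Dio2. TNF + IL-6 Low was tight, at 7.17, 7.11, 7.23, 7.01, 7.14 and 7.23, all within the Control range. TNF + IL-6 High was at 7.03, 7.72, 6.82, 7.08, 6.64 and 6.97, with its replicate 2 above every Control array. The log2 difference of TNF + IL-6 Low from Control was 0.17 (95% interval -0.11 to 0.46). That of TNF + IL-6 High was 0.06 (-0.22 to 0.35), and -0.07 without replicate 2 of that group. IL-6 alone left the mean within 0.1 of Control, at a log2 difference of -0.01 for the lower dose (6.97 ± 0.15, SD, n = 6) and -0.07 for the higher (6.90 ± 0.24, SD, n = 6).

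Over all arrays with TNFα against all without it, Dio2 differed by 0.21 on the log2 scale (SE 0.08, 95% interval 0.05 to 0.38, adjusted p = 0.804 from limma). The direction was the same within each of the 4 first letters of the array names, E, F, G and H, which split the arrays by replicate number, at 0.37, 0.21, 0.05 and 0.29. For TNF against Control it was not, with 0.43, -0.04, 0.58 and 0.59. When TNF replicate 6 and TNF + IL-6 High replicate 2 were both left out, a choice made after seeing the data, the difference with TNFα given was 0.12 (adjusted p = 0.890 from limma). Some regional markers also had other means with TNFα given, though none passed after adjustment. Of the 12 hypothalamic markers 9 were lower with TNFα given, and the mean of the list without Rax was 7.74 with TNFα (6.90 to 8.20) and 7.88 without it (7.41 to 8.34). All 5 cortical and hippocampal and all 5 striatal markers were higher. Of the 6 thalamic markers 2 were higher and 4 lower, with a median of -0.01. In TNF against Control 11 of the 12 hypothalamic markers were lower. All 5 cortical and hippocampal markers were higher there, 2 of them at an unadjusted p under 0.05 and none after adjustment. Over all genes 5.29% were past that limit in TNF, 3.16% higher. All 6 thalamic markers were lower in that comparison, with a median of -0.17. TNF replicate 6 and TNF + IL-6 High replicate 2 had the highest Dio2 of all arrays. On TNF + IL-6 High replicate 2 the mean of 6 thalamic markers was 8.61 and that of 11 hypothalamic markers 6.90, against 6.79 to 8.95 and 7.44 to 8.26 on the Control arrays. On the 5 TNF arrays, replicate 6 among them, these means were 6.89 to 7.94 and 7.52 to 8.02, within the Control ranges. The part of these markers in the value of Dio2 was not tested.

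**Figure D2:**
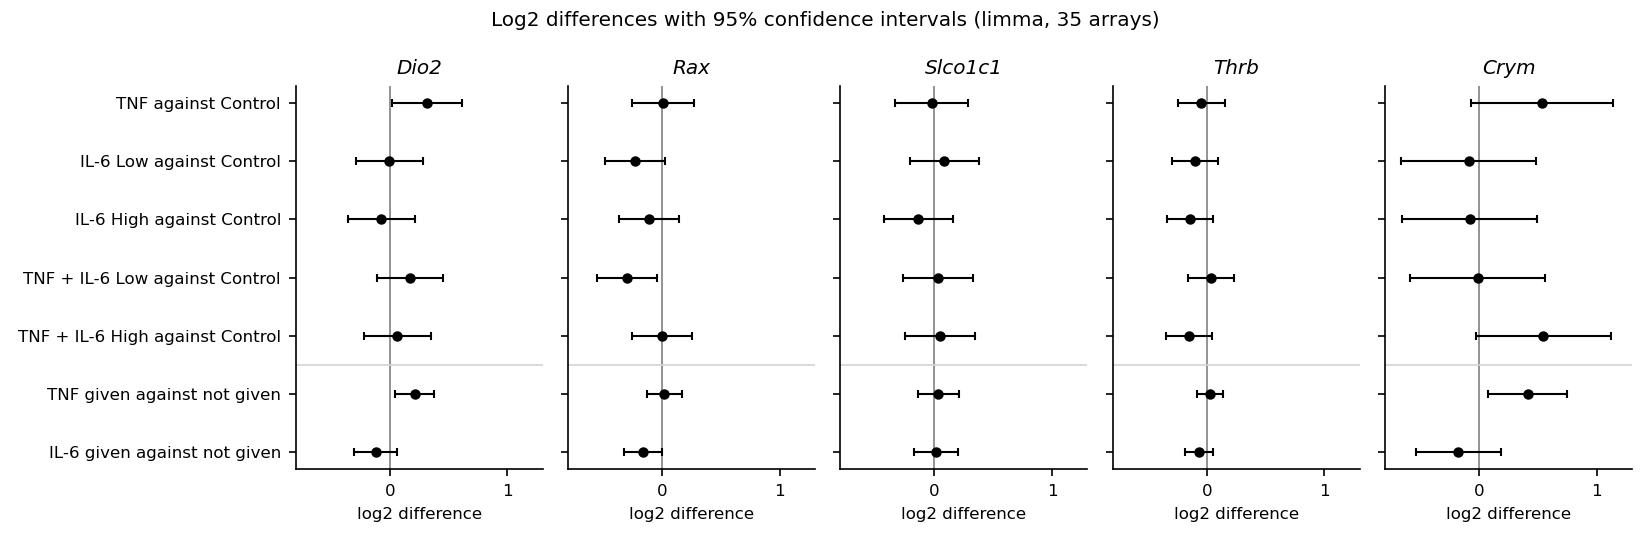
Log2 differences of 5 genes in 7 comparisons, with 95% confidence intervals from limma over 35 arrays. Each row is a comparison, and positive values mean higher in the group named first. Before adjustment over all genes, the intervals of Dio2 lie above 0 for TNF against Control (0.02 to 0.62) and for TNFα given against not given (0.05 to 0.38). That of Crym does for TNFα given against not given (0.08 to 0.75). The intervals of Rax lie below 0 for TNF + IL-6 Low against Control (-0.55 to -0.05) and for IL-6 given against not given (-0.32 to -0.0033).

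Slco1c1, the T4 transporter, differed little between groups. Its log2 intensities ranged from 7.37 to 8.11 in TNF, 7.61 to 8.02 and 7.32 to 7.98 with the lower and the higher dose of IL-6 alone, 7.43 to 8.03 and 7.26 to 8.50 with these doses and TNFα, and 7.50 to 8.06 in Control. The differences from Control lay between -0.14 in IL-6 High (95% interval -0.43 to 0.16) and 0.09 in IL-6 Low (-0.21 to 0.38). Single arrays moved both. The first was -0.07 without IL-6 High replicate 3 and -0.20 without IL-6 High replicate 4. The second was 0.03 without Control replicate 1 and 0.14 without Control replicate 6. Its highest value of all 35 arrays, 8.50, was again on TNF + IL-6 High replicate 2.

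Crym had the widest spread of the 5. Its SD within groups, as moderated by limma over all genes, was 0.49. This was larger than that of 99.4% of the genes tested, where the median gene had 0.17. In TNF the values were 5.69, 5.37, 6.27, 5.58 and 8.15, in TNF + IL-6 High 6.01, 5.70, 6.45, 6.81, 5.64 and 6.76, and in Control 5.82, 5.56, 5.59, 5.72, 5.50 and 5.89. TNF replicates 3 and 6 and 4 of the 6 TNF + IL-6 High arrays were above every Control array. The group means were 6.21 ± 1.14 in TNF (SD, n = 5), 6.23 ± 0.52 in TNF + IL-6 High (SD, n = 6) and 5.68 ± 0.15 in Control (SD, n = 6). The difference from Control was 0.53 in TNF (SE 0.30, 95% interval -0.07 to 1.14, adjusted p = 0.911 from limma), and 0.05 without TNF replicate 6. In TNF + IL-6 High it was 0.55 (SE 0.28, 95% interval -0.03 to 1.12, adjusted p = 1.00 from limma), with 0.43 to 0.66 when any 1 array was left out. Crym was at -0.09 and -0.08 from Control with the lower and the higher dose of IL-6 alone, and at -0.01 in TNF + IL-6 Low.

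With TNFα given against not given, Crym differed by 0.41 (SE 0.17, 95% interval 0.08 to 0.75, adjusted p = 0.804 from limma). The values within the letters E, F, G and H were -0.02, 0.31, 0.26 and 1.22, the last of which holds TNF replicate 6. Without that array the pooled difference was 0.25. With IL-6 given against not given Crym was at -0.18 (SE 0.18, adjusted p = 0.999 from limma), and at 0.07 without TNF replicate 6. Markers of the striatum, a forebrain region outside the hypothalamus, moved with Crym. Their mean over 5 genes ranged from 7.20 to 8.72 in TNF, 7.03 to 7.79 in TNF + IL-6 High, and had a median of 7.21 and a highest value of 7.32 in Control. It was highest on TNF replicate 6 (8.72), TNF + IL-6 High replicate 4 (7.79) and TNF + IL-6 Low replicate 3 (7.63), where Crym was at 8.15, 6.81 and 6.35. In TNF against Control all 5 striatal markers were higher, 3 of them at an unadjusted p under 0.05 and none after adjustment. Over all genes 5.29% were past that limit in TNF, 3.16% higher. The median striatal mean of the TNF arrays was 7.25, within the Control range. TNF + IL-6 High replicate 6 had a high Crym value (6.76) with a striatal mean of 7.08, within the Control range, and a mean of cortical and hippocampal markers of 6.57, above the Control range of 5.24 to 6.08. The part of these markers in the values of Crym was not tested.

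Thrb, the receptor beta gene, was near Control in every group. In TNF + IL-6 Low it ranged from 7.20 to 7.62, in TNF + IL-6 High from 6.89 to 7.34, and in Control from 7.27 to 7.42. The Control arrays were the tightest of the 6 groups for Thrb, at 7.32 ± 0.05 (SD, n = 6). The differences from Control lay between -0.15 in TNF + IL-6 High (95% interval -0.34 to 0.04, adjusted p = 1.00 from limma) and 0.04 in TNF + IL-6 Low (-0.16 to 0.23). In IL-6 High 5 of the 6 arrays were below every Control array, and in TNF + IL-6 High 4 were, while IL-6 High was at -0.14 from Control (adjusted p = 1.00 from limma). Without IL-6 High replicate 5 this was -0.08. The difference of TNF + IL-6 High was -0.09 without replicate 5 of that group.

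Rax marks the tanycyte lineage in the adult hypothalamus, and its signal was dim. It was over an intensity of 20 on 1 of 5 TNF arrays, 3 of 6 TNF + IL-6 High arrays and 1 of 6 Control arrays, and on no array of the other 3 groups, 5 of 35 in all. The filter asks for 3 such arrays, so Rax was tested only because of the TNF + IL-6 High arrays. Its differences and correlations are thus mostly of values under that limit. Its values in TNF + IL-6 Low were 3.77, 4.12, 4.12, 3.75, 3.78 and 3.56, against 4.21, 3.98, 4.22, 3.99, 4.42 and 4.07 in Control. Of the 6 TNF + IL-6 Low arrays, 4 were below every Control array and the other 2 were among them. The difference was -0.30 (SE 0.13, 95% interval -0.55 to -0.05, adjusted p = 0.511 from limma). Within the letters E, F, G and H it was -0.44, 0.02, -0.44 and -0.51. Regional markers also had other means in the same group and in IL-6 Low, though none passed after adjustment. Of 12 hypothalamic markers tested, Rax itself among them, 11 were lower in TNF + IL-6 Low than in Control, with a median of -0.33. All 6 thalamic markers were higher, with a median of 0.46. At an unadjusted p under 0.05 were 2 of the 12, both lower and Rax 1 of them, and 1 of the 6, against 9.58% of all genes. In IL-6 Low all 12 hypothalamic markers were lower, with a median of -0.20, and all 6 thalamic markers higher, with a median of 0.34. There 1 of the 12 and 0 of the 6 were at an unadjusted p under 0.05, against 1.4% of all genes. Without Rax, the mean of the hypothalamic markers ranged from 7.24 to 8.20 in TNF + IL-6 Low and from 7.44 to 8.26 in Control. Their part in the value of Rax was not tested. In IL-6 Low, Rax was at -0.23 from Control (SE 0.13), with 5 of the 6 arrays below every Control array. In IL-6 High it was at -0.11 (SE 0.13), with 2 of the 6 below. With IL-6 given against not given, Rax was at -0.16 (SE 0.08, adjusted p = 0.999 from limma), and in TNF and TNF + IL-6 High it was at 0.01 and 0.00 from Control. All 6 TNF + IL-6 Low arrays and 5 of the 6 Control arrays were under the intensity limit for Rax.

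The order of the group means differed between the genes. Dio2 and Rax had their highest mean in TNF, Slco1c1 in IL-6 Low, Thrb in TNF + IL-6 Low and Crym in TNF + IL-6 High. The lowest mean was in IL-6 High for Dio2 and Slco1c1, in IL-6 Low for Crym, in TNF + IL-6 High for Thrb and in TNF + IL-6 Low for Rax. No gap between neighbours in these orders was larger than their pooled SD for any of the 5 genes, and all 5 pairs of neighbours overlapped in each gene. From the highest to the lowest mean the log2 span was 0.39 for Dio2, 0.31 for Rax, 0.22 for Slco1c1, 0.19 for Thrb and 0.64 for Crym. The F test of any difference among the groups gave an adjusted p = 1.00 from limma for each of the 5.

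Within groups the 5 genes did not vary as 1 set. Deviations from the group means were correlated over the 35 arrays, for 10 pairs of genes and for 60 pairs of a gene and a marker list. The p came from a permutation test within groups and was adjusted over these 70 relations. These genes and lists were chosen with earlier results of the data known. Dio2 and Slco1c1 varied together (Pearson r = 0.52, permutation p = 0.0109, adjusted p = 0.0425; Spearman rho = 0.38, permutation p = 0.0391, adjusted p = 0.119). Without the 2 arrays farthest in Dio2, TNF replicate 6 and TNF + IL-6 High replicate 2, r was 0.29, so the relation rests largely on them. Within the letters E, F, G and H it was -0.61, 0.63, 0.47 and 0.83. Among all genes compared, 93.4% had a lower r with Dio2 than Slco1c1 had. Thrb and Crym also varied together (r = 0.50, permutation p = 0.00941, adjusted p = 0.0388; rho = 0.42, permutation p = 0.0272, adjusted p = 0.0951), with r = 0.48 without the 2 farthest arrays and 0.75, 0.33, 0.24 and 0.79 within the letters. Of all genes, 95.6% had a lower r with Thrb than Crym had. Rax ran against Dio2 (r = -0.45, permutation p = 0.0231, adjusted p = 0.0646; rho = -0.39, permutation p = 0.0298, adjusted p = 0.0993) and against Slco1c1 (r = -0.47, permutation p = 0.0190, adjusted p = 0.0596; rho = -0.35, permutation p = 0.0623, adjusted p = 0.168), and neither relation passed. Without the 2 arrays farthest in Rax or Dio2 these were -0.33 with Slco1c1 and -0.32 with Dio2. Within the letters the relation of Dio2 and Rax was 0.42, -0.56, -0.66 and -0.47, and that of Rax and Slco1c1 -0.55, -0.54, -0.40 and -0.54. The other 6 pairs had r between 0.04 and 0.22, and none passed.

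The tanycyte label was checked against 7 markers other than these genes. Vim, Gpr50, Col23a1, Scn7a and Lhx2 were over an intensity of 20 on all 35 arrays, Fndc3c1 on 27 and Nes on 18. The mean of the 7 varied together with Rax (r = 0.60, permutation p = 0.00135, adjusted p = 0.00859; rho = 0.51, permutation p = 0.00681, adjusted p = 0.0374), and r was 0.65 without the 2 arrays farthest in Rax. Rax also had r = 0.60 with the hypothalamic markers, so the value is not particular to tanycyte markers. Rax itself was over an intensity of 20 on only 5 of the 35 arrays. The mean of the 7 had its other relations as follows. This mean ran against Dio2 (r = -0.50, permutation p = 0.00543, adjusted p = 0.0272; rho = -0.45, permutation p = 0.0104, adjusted p = 0.0486), with -0.45 without the 2 farthest arrays. It also ran against Slco1c1 (r = -0.57, permutation p = 0.00159, adjusted p = 0.00927; rho = -0.47, permutation p = 0.0125, adjusted p = 0.0545), with -0.45 without the 2 farthest. Within the letters E, F, G and H these relations were -0.01, 0.93, 0.43 and 0.82 for Rax, 0.16, -0.60, -0.73 and -0.05 for Dio2, and -0.38, -0.71, -0.54 and -0.40 for Slco1c1. Gpr50, an orphan receptor of tanycytes, had r = -0.83 with Dio2 and 0.56 with Rax, and the 7 markers did not go 1 way. With Dio2 5 of the 7 were negative and r ranged from -0.83 to 0.40, the highest for Lhx2. With Rax r ranged from -0.01 to 0.63, and Vim, Lhx2 and Nes were at -0.01, 0.01 and 0.03. Thrb varied with them too, past the threshold by rank and not by Pearson's r (r = 0.44, permutation p = 0.0149, adjusted p = 0.0522; rho = 0.56, permutation p = 0.00189, adjusted p = 0.0147), with r = 0.50 without its 2 farthest arrays and 0.66, 0.63, 0.09 and 0.76 within the letters.

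**Figure D3:**
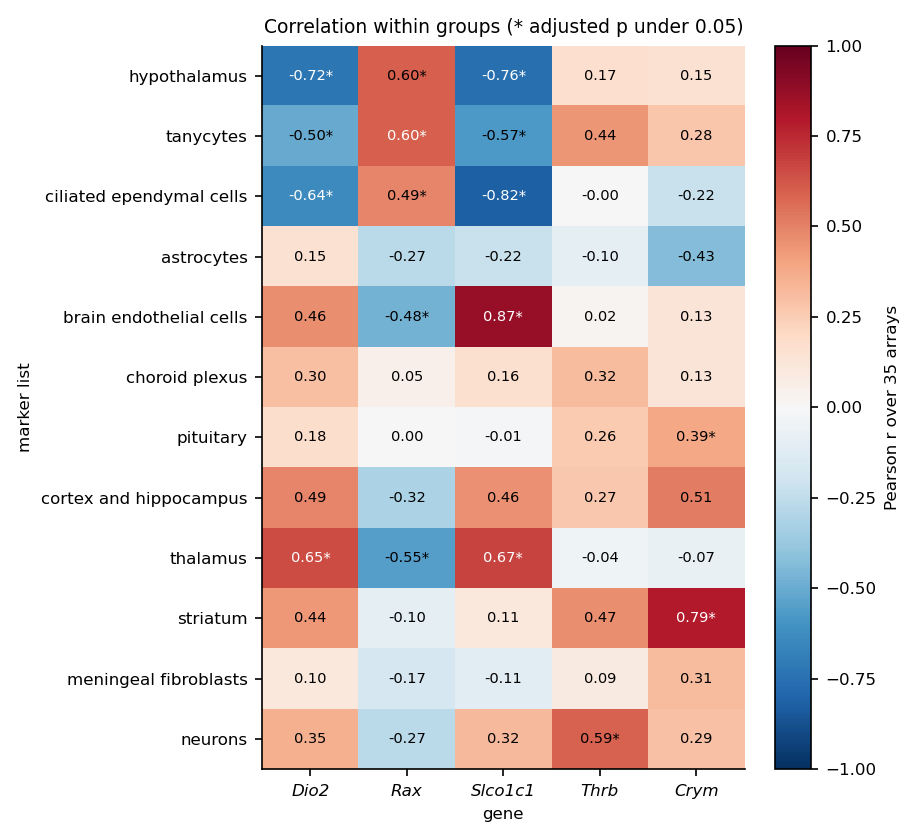
Pearson r over 35 arrays, on deviations from the group means, of 5 genes (columns) with the mean level of 12 marker lists (rows), from -1 in blue to 1 in red. An asterisk marks an adjusted p under 0.05 in the permutation test. Slco1c1 has 0.87 with brain endothelial cell markers, Crym 0.79 with striatal markers, and Dio2 and Rax differ in sign for hypothalamic, tanycyte and thalamic markers.

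Of the 60 relations with marker lists, 17 passed. The share of all genes that pass with these lists was not tested, so the count cannot be read as particular to the genes studied. Dio2, Slco1c1 and Rax each passed with the hypothalamic, tanycyte, ciliated ependymal and thalamic lists. For each of these genes, the sign with the thalamic list was opposite to that with the other lists named. The 17 are therefore not taken as separate results. Slco1c1 followed the markers of brain endothelial cells (r = 0.87 and rho = 0.76, both with permutation p = 1e-05, the smallest these permutations can give, and adjusted p = 0.000233). All 10 endothelial markers had a positive r with it, from 0.45 to 0.86. The value was 0.82 without the 2 farthest arrays and 0.94, 0.90, 0.85 and 0.53 within the letters E, F, G and H. It ran against hypothalamic markers (r = -0.76, rho = -0.72, adjusted permutation p = 0.000233 for both; -0.66 without the 2 farthest) and against ciliated ependymal markers (r = -0.82, rho = -0.77, adjusted permutation p = 0.000233 for both; -0.77 without the 2 farthest). These were -0.55, -0.88, -0.70 and -0.64 within the letters for the hypothalamic markers, and -0.81, -0.90, -0.64 and -0.91 for the ependymal ones. With thalamic markers Slco1c1 had r = 0.67 (permutation p = 4e-05, adjusted p = 0.000560; rho = 0.62, permutation p = 0.000130, adjusted p = 0.00182), with 0.60 without the 2 farthest arrays and 0.50, 0.62, 0.90 and 0.55 within the letters.

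Crym followed the striatal markers (r = 0.79, permutation p = 0.00402, adjusted p = 0.0216; rho = 0.50, permutation p = 0.0164, adjusted p = 0.0675). Without TNF replicates 2 and 6, the 2 arrays farthest in Crym, r was 0.56, and within the letters it was 0.36, 0.71, 0.76 and 0.87. All 5 striatal markers had a positive r with Crym, from 0.31 for the dopamine receptor gene Drd2 to 0.82 for Rgs9, a regulator of dopamine signalling. With pituitary markers Crym had r = 0.39 (permutation p = 0.00832, adjusted p = 0.0364; rho = 0.31, permutation p = 0.0914, adjusted p = 0.200), with 0.40 without the 2 farthest arrays and 0.60, 0.44, 0.05 and 0.64 within the letters. With the 7 tanycyte markers its r was 0.28 (permutation p = 0.145, adjusted p = 0.281; rho = 0.33, permutation p = 0.0833, adjusted p = 0.191).

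Dio2 followed thalamic markers (r = 0.65, permutation p = 7e-05, adjusted p = 0.000817; rho = 0.64, permutation p = 0.000160, adjusted p = 0.00187) and ran against hypothalamic ones (r = -0.72, permutation p = 3e-05, adjusted p = 0.000525; rho = -0.69, permutation p = 6e-05, adjusted p = 0.00105). Without the 2 farthest arrays these were 0.62 and -0.65. Within the letters E, F, G and H they were 0.15, 0.70, 0.68 and 0.47 for the thalamic markers and 0.16, -0.77, -0.78 and -0.49 for the hypothalamic ones. Astrocytes also make Dio2, and their 9 markers went both ways, from r = -0.50 for Agt to 0.66 for Slc1a2. Their mean had r = 0.15 with Dio2 (permutation p = 0.486, adjusted p = 0.673; rho = 0.15, permutation p = 0.429, adjusted p = 0.599), with 0.19 without the 2 farthest arrays and 0.87, 0.40, 0.43 and -0.68 within the letters. Rax went the other way, with r = 0.60 with hypothalamic markers (permutation p = 0.000920, adjusted p = 0.00716; rho = 0.51, permutation p = 0.00355, adjusted p = 0.0248) and -0.55 with thalamic ones (permutation p = 0.00134, adjusted p = 0.00859; rho = -0.55, permutation p = 0.00162, adjusted p = 0.0142). These were 0.58 and -0.54 without the 2 farthest arrays, and 0.43, 0.78, 0.55 and 0.88, and -0.21, -0.78, -0.51 and -0.72 within the letters. Ciliated ependymal markers had r = -0.64 with Dio2 (permutation p = 0.000290, adjusted p = 0.00290; rho = -0.58, permutation p = 0.000700, adjusted p = 0.00700) and 0.49 with Rax (permutation p = 0.00593, adjusted p = 0.0277; rho = 0.48, permutation p = 0.00694, adjusted p = 0.0374). These were -0.48 and 0.41 without the 2 farthest arrays, and 0.93, -0.65, -0.64 and -0.90 for Dio2 and 0.55, 0.54, 0.48 and 0.73 for Rax within the letters. Endothelial markers had r = -0.48 with Rax (permutation p = 0.0135, adjusted p = 0.0496; rho = -0.44, permutation p = 0.0188, adjusted p = 0.0694), with -0.33 without the 2 farthest arrays and -0.62, -0.42, -0.58 and -0.24 within the letters. By Pearson's r, Thrb passed with 1 list, that of general neuronal markers (r = 0.59, permutation p = 0.000590, adjusted p = 0.00516; rho = 0.49, permutation p = 0.00492, adjusted p = 0.0313), with r = 0.43 without its 2 farthest arrays and -0.22, -0.24, 0.93 and 0.52 within the letters. All markers were read from the same arrays as the genes, and the part of the regions and cell types held in each sample was not tested.

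**Figure D4:**
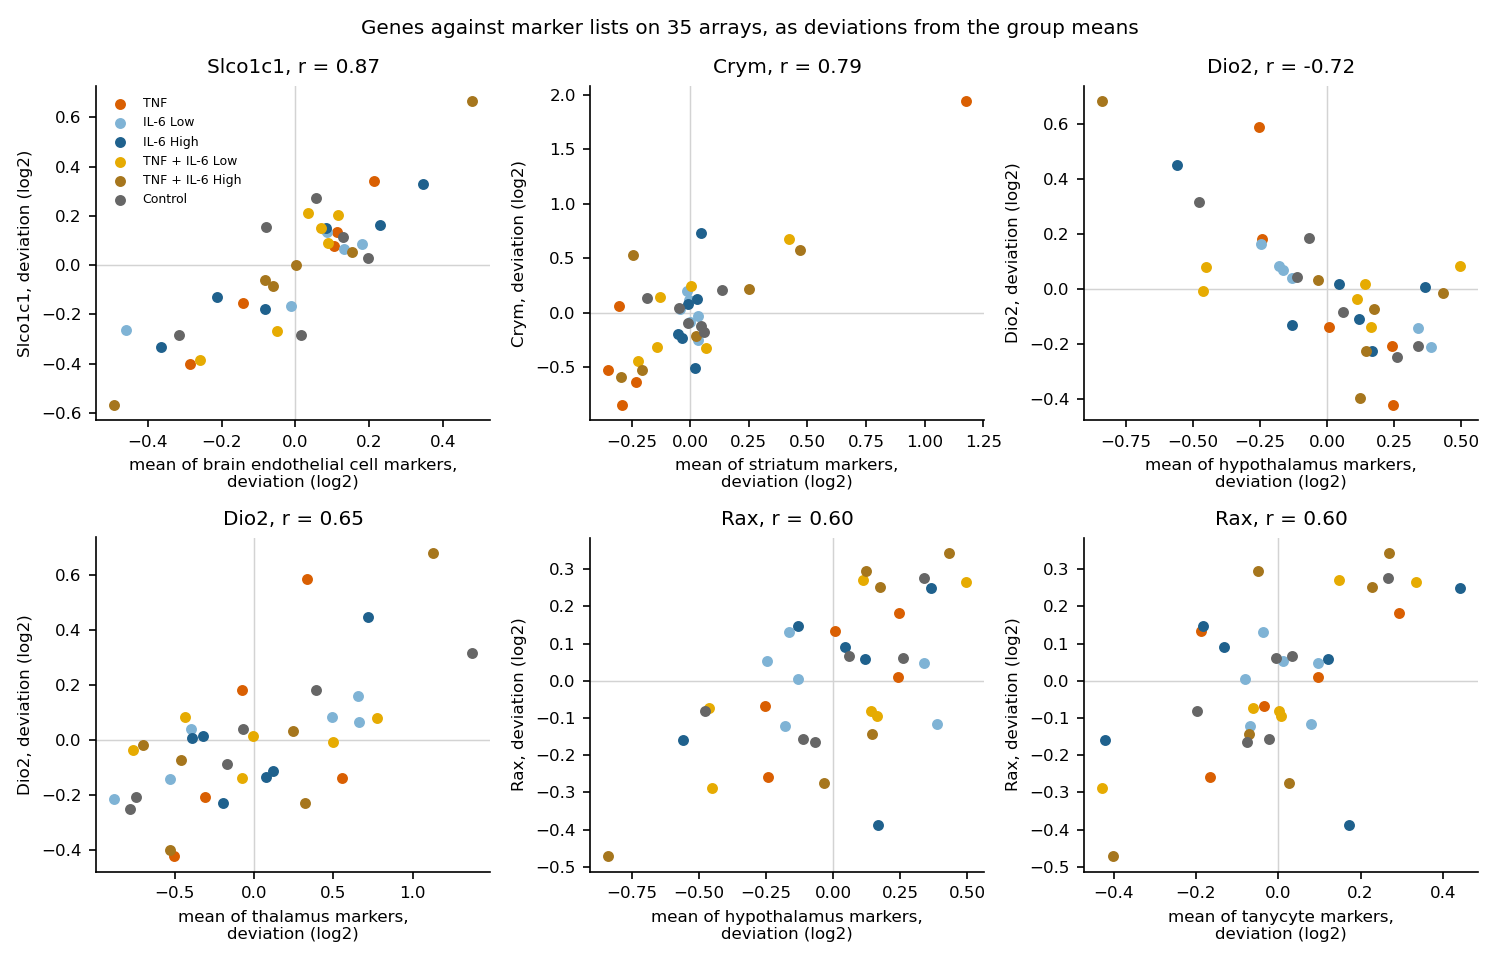
Deviation of a gene from its group mean (vertical, log2) against the deviation of the mean of a marker list (horizontal, log2), 1 point per array and 35 arrays, coloured by group, with Pearson r above each panel. Slco1c1 and endothelial markers lie along a line (r = 0.87), Crym and striatal markers are stretched by TNF replicate 6, and Dio2 and Rax slope in opposite directions against hypothalamic markers (r = -0.72 and 0.60).

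The single genes most like each of the 5, by Pearson r over the same 35 arrays, fell into different sets. For Dio2 they were Pcp4l1 (0.90), Arhgef3 (0.85), and Hapln1, Atp2b2 and Lgi2 (0.83 each). Atp2b2 encodes a neuronal calcium pump and Hapln1 a link protein of the matrix around neurons. For Rax they were Nr5a1 (0.69), the transcription factor of the ventromedial hypothalamus, Ttll13, Vip and Tmem91 (0.64 each) and the tanycyte marker Fndc3c1 (0.63). Vip encodes vasoactive intestinal peptide, made by neurons of the suprachiasmatic nucleus. For Slco1c1 they were Dst, Coro6 and Flt1 (0.86 each), Slco1a4 (0.85) and Abcb1a (0.84). Flt1, a receptor of vascular endothelial growth factor, and the transporters Slco1a4 and Abcb1a are genes of the brain endothelium. For Thrb they were Med14 (0.86), a subunit of the Mediator complex, Phf2 (0.81), Nfya (0.80), Ncoa5 (0.79) and Kdm5b (0.77), which encode nuclear proteins. For Crym they were Kcnh3 and Ddn (0.89 each), Sipa1l1 and Phactr1 (0.88 each) and Bcl11b (0.86). Kcnh3 encodes a potassium channel of forebrain neurons, Ddn the dendritic protein dendrin, and Bcl11b a transcription factor of striatal and cortical neurons. These values are descriptions over 14109 genes, and no test was made.

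The rest of the thyroid hormone pathway was read from lists of named genes, and none of their genes passed in any comparison. In thyroid hormone transport and metabolism 9 of 12 genes were tested. With TNFα given against not given, 2 were past an unadjusted p of 0.05 in the higher direction, Dio2 and Crym, and 1 in the lower. The lower one was Slc7a5, a large amino acid transporter that also carries thyroid hormone, at -0.16 (SE 0.06). Over all genes 5.99% were past that limit, 2.58% higher and 3.41% lower. The median of the 9 was 0.03, against -0.01 over all genes tested. Slc16a10, a transporter of aromatic amino acids and thyroid hormone, was at 0.25 (SE 0.09) in IL-6 High and at 0.07 to 0.09 in the other treated groups.

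Among the receptors, their partners and cofactors, 9 of 12 genes were tested. All 9 had a lower mean than Control with either dose of IL-6 alone, with medians of -0.05 for both doses against -0.01 and 0.00 over all genes. All 9 were also lower in TNF + IL-6 High, with a median of -0.08 against -0.02, while 6 of 9 were lower in TNF and 6 of 9 in TNF + IL-6 Low. The 5 groups share their Control arrays. Rxra, the retinoid X receptor alpha that pairs with the thyroid hormone receptors, ranked first of these in the F test (adjusted p = 1.00 from limma). Its log2 difference from Control was -0.33 (SE 0.11) in TNF + IL-6 Low and -0.22 with the same IL-6 dose alone. It was -0.12 when TNFα and the higher IL-6 dose were combined, -0.05 with that dose alone and -0.01 in TNF. Hdac3, a corepressor subunit, was at -0.14 (SE 0.06) in TNF + IL-6 Low and Ncoa1, a coactivator, at 0.07 (SE 0.06).

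The genes for proteins that modify the Dio2 product or make selenoproteins were all tested, 8 of 8, as RNA only. None was past an unadjusted p of 0.05 in any of the 7 comparisons, where 1.4% to 9.58% of all genes were. The medians of this list lay between -0.06 and 0.02. Wsb1, which marks the Dio2 product for degradation, was at -0.15 (SE 0.11) in TNF and 0.12 (SE 0.10) in TNF + IL-6 Low. Usp33, which removes that mark, was at 0.06 and 0.09 there, and Secisbp2, needed to read the selenocysteine codon, at -0.08 and -0.06. Sepsecs, the enzyme that makes the selenocysteine carried to it, was at 0.02 and -0.02.

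Genes known to respond to thyroid hormone in the brain showed no common direction. Of 7 tested of 9, 6 were higher in TNF with a median of 0.21, against 0.01 over all genes, and 2 were higher in TNF + IL-6 Low with a median of -0.09, against -0.02. In TNF, Abcd2, a peroxisomal transporter, was at 0.32 (SE 0.13), Rasd2, a GTP-binding protein of the striatum, at 0.24 (SE 0.12), Thrsp, a regulator of lipid synthesis, at 0.21 (SE 0.18) and Nrgn, neurogranin, at 0.06 (SE 0.15). Abcd2 was the 1 gene of the list past an unadjusted p of 0.05 in TNF, where 5.29% of all genes were. Rasd2 and Nrgn are also forebrain genes, and the striatal and cortical means on TNF replicate 6 were 8.72 and 7.31, while their part in these values was not tested.

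In the hypothalamus-pituitary-thyroid axis 8 of 10 genes were tested. Trh, thyrotropin-releasing hormone, was at -0.24 (SE 0.23) in TNF, -0.23 (SE 0.22) and 0.02 with the lower and the higher dose of IL-6 alone, and -0.37 and -0.35 (SE 0.22 each) with these doses and TNFα. It was at -0.24 (SE 0.13) with TNFα given against not given. Trh is itself 1 of the 12 hypothalamic markers, whose median was -0.13 in TNF, -0.20 and 0.01 with the lower and the higher dose of IL-6 alone, and -0.33 and -0.18 with these doses and TNFα. Their part in the values of Trh was not tested. Tshr, the thyrotropin receptor, was at -0.31 (SE 0.14) in TNF + IL-6 Low, the 1 gene of the list past an unadjusted p of 0.05 in any comparison. In TNF + IL-6 Low 9.58% of all genes were past it. Pgpep1, a peptidase that removes the first residue of thyrotropin-releasing hormone, lay between -0.12 and 0.14. Cga, the alpha chain of thyrotropin, had differences from -0.63 to 0.84, all with SE 0.63 or more. It is a pituitary gene, and the mean of 5 pituitary markers reached 11.57 on 1 TNF + IL-6 Low array, against 4.43 to 6.08 on the Control arrays.

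Among tanycyte markers 16 of 17 genes were tested, Dio2, Rax and Crym among them. In TNF 12 were higher and 4 lower, with a median of 0.07 against 0.01 over all genes. Of the 16, 3 were past an unadjusted p of 0.05, all higher and Dio2 itself among them, against 5.29% of all genes, 3.16% higher. Slc17a8, a vesicular glutamate transporter, was at 0.51 (SE 0.18) in TNF, 0.37 and 0.41 with the lower and the higher dose of IL-6 alone, and 0.45 and 0.29 with these doses and TNFα, on the same Control arrays. It is also a gene of serotonergic neurons. Fgf10, a growth factor of tanycytes, was at 0.20 (SE 0.10) in TNF and 0.15 (SE 0.10) in TNF + IL-6 Low. With IL-6 alone 12 of the 16 were lower at either dose, with medians of -0.06 at the lower dose and -0.08 at the higher.

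Genes of the inflammation response were near Control. Of 12, 9 were tested, and none was past an unadjusted p of 0.05 in any of the 7 comparisons. Over all genes the share past it was 1.4% to 9.58%. Ccl2, a chemokine, lay between -0.12 and 0.11, Nfkb2, a subunit of NF-kB, between -0.08 and 0.10, and Icam1, an adhesion molecule of endothelium, between -0.10 and 0.08. Il1r1, the interleukin-1 receptor, was at -0.24 (SE 0.21) in TNF and 0.23 (SE 0.20) in TNF + IL-6 Low.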

How the data were processed

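Log2 values, made by the authors with RMA (version not given in the sources used here) from Affymetrix Mouse Gene arrays of hypothalamus, were analysed as deposited, per transcript cluster of the array's own annotation. The methods describe probe sets remapped to Entrez genes and at least 7 probes per gene, which were not used here. Of 35556 clusters, 21218 name 1 gene, 1881 several and 12457 none in the platform annotation. Only those of 1 gene were read, the cluster of highest mean where a gene had more, giving 18820 genes, of which 15049 had an intensity over 20 on at least 3 of the 35 arrays. TNF replicate 4 was left out.

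Differences came from a single limma 3.58.1 fit of all 6 groups in R 4.3.3 (eBayes with an intensity trend), with Benjamini-Hochberg adjustment over the 15049 genes. Intervals are 95%. The number of arrays limits the precision. The mice are taken as independent animals. The fit was tested on simulated data. Correlations used deviations from group means and 100000 permutations within groups (SciPy 1.17.1). A marker list's level is the mean log2 of its genes over the minimum, without the genes studied. Named genes are the 6 genes, up to 4 of smallest F test p per pathway list, and the 5 genes most correlated with each of the 5 measured. Predicted genes, olfactory and vomeronasal receptors and small RNAs were not named. Genes and lists were chosen with earlier results of these data known. Alternatives were other filters, scalings, weights, blocks, cluster choices and sets of arrays.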

Additional observations from a re-analysis of the deposited data

Results flagged for a closer look

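One array stood apart in its group. Dio2 on IL-6 High replicate 4 was at 7.35, while the other 5 IL-6 High arrays lay between 6.68 and 6.92, so that the gap to the nearest of them was 0.639 of the range of the group. Of 30 groups of arrays tested for such a gap, this was the 1 found, where chance gives about 1 in 20. On the same array the mean of the hypothalamic markers was 7.41 and that of the tanycyte markers 5.85, each the lowest of the 6 IL-6 High arrays, and that of the thalamic markers was 8.24, the highest of the 6. Their part in the value was not tested. Without the array Dio2 was at -0.16 from Control in IL-6 High, against -0.07 with it.

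Whether the combined injections differed from the sum of their parts was tested for the 5 genes with limma, after the data had been seen. None of the 10 departures passed, with the smallest adjusted p = 0.961 for Slco1c1 (0.20, SE 0.21) and Dio2 (-0.18, SE 0.20) with IL-6 High. Over all genes 0 passed, and 494 and 603 had an unadjusted p under 0.05 with the lower and the higher IL-6 dose.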

How the results depend on the processing

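The count of genes passing, 0 in each comparison, was the same under every alternative run and with any 1 array left out, for all genes and for the 5 genes. The counts of genes at an unadjusted p under 0.05 moved more, with 579 to 1563 in TNF (796 as reported), 63 to 493 in IL-6 Low (211), 98 to 504 in IL-6 High (312), 278 to 1893 and 75 to 1025 when these doses were combined with TNFα (1442 and 309), 427 to 1720 with TNFα given (901) and 339 to 871 with IL-6 given (492). The extremes came mostly from keeping all 36 arrays and from array weights. Some differences turned sign, none of which passed in any setting. All were within 0.1 of 0 as reported except that of Crym with IL-6 given, at -0.18. With array weights, Crym was at 0.00960 with IL-6 given and 0.051 in TNF + IL-6 Low, Dio2 and Slco1c1 at -0.028 and -0.015 in TNF + IL-6 High, and Slco1c1 at -0.0093 with TNFα given. Without both TNF replicate 6 and TNF + IL-6 High replicate 2 (chosen after seeing the data), Crym was at 0.094 with IL-6 given, Dio2 and Slco1c1 at -0.072 and -0.088 in TNF + IL-6 High, and Slco1c1 at -0.038 with TNFα given. Quantile normalization put Dio2 at 0.00962 in IL-6 Low, and median centring Slco1c1 at 0.013 in TNF. With all 36 arrays Slco1c1 and Thrb were at -0.029 (-0.0287 and -0.0293) with TNFα given and Thrb at 0.018 with IL-6 given, the correlations of Rax with Thrb and of Slco1c1 with Crym were -0.25 and -0.12, and the median of all genes in TNF moved to -0.10. By rank, Dio2 and Crym correlated at -0.032 and Slco1c1 and Thrb at -0.020. The cause was not tested. The number of pairs of genes correlated past the threshold, 2, was 0 by rank, 1 without centring on group means and 4 with all 36 arrays.

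The replicate number as a block turned 1 sign, Rax in TNF at -0.020, and changed no other direction and no call. Dio2 with TNFα given was at 0.22 with the block. Same-numbered arrays correlated over 0.1 in 36 of 85 pairs, and 11 of the 35 arrays correlated best with their own number. The mean correlation of same-numbered arrays was positive for every number, from 0.012 to 0.13. With the block, 1613 genes had an unadjusted p under 0.05 in TNF + IL-6 Low, against 1442 without it. The values given by chance were not computed. Whether the numbers pair the mice is thus not settled, and the main fit used no pairing. The fits of only the groups compared and of an intensity over 50 dropped Rax in most comparisons or in all.

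With 1 array left out, the differences that could change sign ranged as follows. In TNF, Rax from -0.038 to 0.072, Slco1c1 from -0.11 to 0.079 and Thrb from -0.12 to 0.0041. In IL-6 Low, Dio2 from -0.055 to 0.058. In IL-6 High, Crym from -0.23 to 0.022. In TNF + IL-6 Low, Slco1c1 from -0.029 to 0.11, Thrb from -0.017 to 0.068 and Crym from -0.15 to 0.075. In TNF + IL-6 High, Dio2 from -0.072 to 0.14, Rax from -0.067 to 0.096 and Slco1c1 from -0.088 to 0.16. In the pooled TNFα comparison, Rax from -0.0083 to 0.049 and Slco1c1 from -0.0098 to 0.072. In the pooled IL-6 comparison, Slco1c1 from -0.034 to 0.059 and Crym from -0.28 to 0.067.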
